A study of Mus musculus with 4 samples.

Results

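NRF2 (encoded by Nfe2l2) is the transcription factor that switches on the antioxidant program of the cell, and 10 genes of this system were followed in cultured mouse macrophages. The rule was the gene symbol alone: Nfe2l2, its sensor Keap1 and the 8 NRF2 target genes Hmox1, Nqo1, Gclc, Gclm, Txnrd1, Srxn1, Slc7a11 and Prdx1. All 10 were among the 34745 genes of the deposited table, and all 10 passed the filter on low counts that left 12418 genes for testing. Total RNA had been sequenced in 4 libraries, of which 2 were labelled WT and 2 KO, numbered 1 and 2 within each genotype. Per the study's text, the WT cells carried floxed G3bp1 (G3bp1f/f), and the KO cells were G3bp1mac-/-, which adds Cre recombinase under the Lyz2 promoter, active in monocytes, macrophages and granulocytes. The text described them as bone marrow-derived macrophages, and the labels name the medium but no treatment. The study's methods give an age for its wild-type mice but none specifically for the donors of these cells. Whether the 2 libraries of a genotype came from separate mice or cultures is not given in the sources used here, so p-values measure only the spread between these libraries, which may be technical.

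Under resting conditions KEAP1 holds NRF2 and, with the CUL3 ubiquitin ligase, sends it to the proteasome. Oxidants and electrophiles modify cysteines of KEAP1, NRF2 then accumulates, pairs with small MAF proteins and binds antioxidant response elements (ARE) of its targets, where BACH1 competes as a repressor. In macrophages, which make superoxide with the phagocyte NADPH oxidase and take up heme-rich dead cells, these targets supply glutathione, reduced thioredoxin and heme oxygenase.

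The promoters were searched first, to show which members carry the ARE letters close to their start site. RefSeq windows on GRCm38.p6, from 250 bases before to 50 bases after an annotated start, were found for 8 members as 10 windows, 3 of them for Txnrd1; Hmox1 and Gclc were not matched. The ARE core TGACNNNGC, searched on both strands, was found in 5 of these 10 windows and in 12.4% of all 32841 windows of the same length (14.5% of those of tested genes). The matches are shown in capitals with their flanks, each read on the strand on which the core reads 5′ to 3′.
Gclm, minus strand, chr3:122245413-122245441: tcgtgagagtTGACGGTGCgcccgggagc
Txnrd1, minus strand, chr10:82859104-82859132: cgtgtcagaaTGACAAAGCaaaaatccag
Srxn1, minus strand, chr2:152105542-152105570: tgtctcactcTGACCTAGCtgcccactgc
Prdx1, minus strand, chr4:116685456-116685484: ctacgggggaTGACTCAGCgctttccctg
Nfe2l2, minus strand, chr2:75704885-75704913: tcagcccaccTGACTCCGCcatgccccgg
The match of Prdx1 also holds the AP-1 letters TGANTCA. These letters, searched on both strands, were in 2 of the 10 windows, those of Prdx1 and Srxn1, and in 7.81% of all windows. The Srxn1 match lay after the start, at bases 29 to 37, and the other matches lay before it. For Nfe2l2 alone, the bases after the annotated start were not found near the start of any GENCODE M21 transcript.

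The windows of Slc7a11, Nqo1 and Keap1 held no ARE core. That of Slc7a11, the member with the widest range between libraries (from 8.56 to 159 CPM, the count scaled to library size by TMM), instead held 2 copies of TGATGNAA, the letters of the amino acid response element that ATF4 is known to bind. This motif, searched on both strands, was in 1 of the 10 windows and in 3.97% of all windows. The copies ended 59 and 40 bases before the start site and are shown in capitals, each on its own strand.
Slc7a11, minus strand (the strand of the gene), chr3:50443662-50443689: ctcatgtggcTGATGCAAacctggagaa
Slc7a11, plus strand, chr3:50443643-50443670: ggctgcatgaTGATGCAAattctccagg
A match is a run of letters only, and binding was not measured here.

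**Figure D1:**
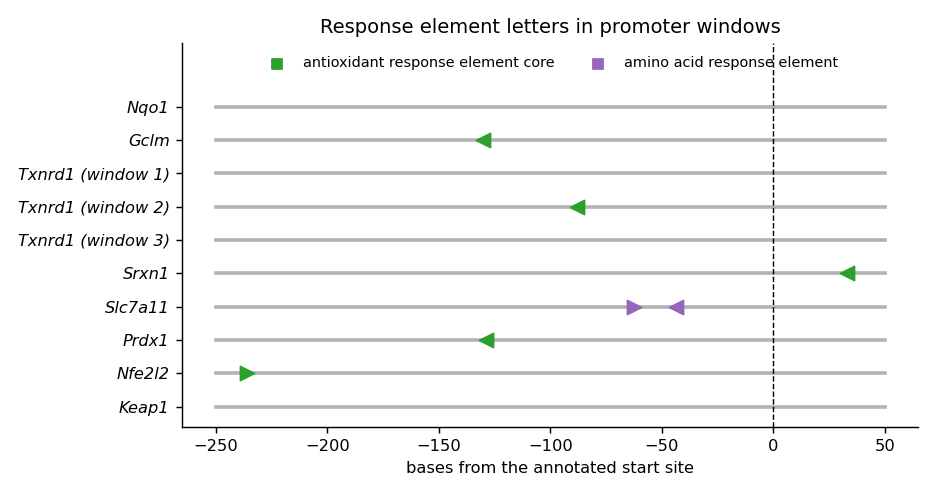
Positions of ARE core matches (green) and amino acid response element matches (purple) in the 10 promoter windows, in bases from the annotated start site (dashed line). Arrowheads pointing right lie on the strand of the gene, and arrowheads pointing left lie on the other strand; 5 windows have an ARE core and Slc7a11 has 2 amino acid response elements.

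The libraries held between 16724241 and 19747909 counts, so that a count of 0 allowed a level of up to 0.152 to 0.188 CPM, counting error only. Of the 12 macrophage markers all were detected, with Cd68 at 2886 to 3297 CPM, and Cd163 was near 0 at 0.251 to 0.375 CPM. G3bp1, the targeted gene, had 104 and 180 CPM in WT 1 and WT 2 and 70.1 and 117 CPM in KO 1 and KO 2. KO 2 lay above WT 1, so the genotypes overlapped, with a log2 fold change of -0.61 (SE 0.40, adjusted p 0.904 in edgeR's quasi-likelihood test), and the value ran from -1.03 without KO replicate 2 to -0.19 without WT replicate 2. Within number 1 KO was at 0.673 of WT and within number 2 at 0.647, and the adjusted p was 0.0853 with the replicate block and 0.0358 with the block and gene length correction (-0.74). G3bp1 was thus lower in KO within each number but far from absent, counts over the whole gene do not show the loss of single exons, and every direction below is that of the libraries labelled KO. Fibroblast and stromal markers were higher in both KO libraries for 10 of 12 genes (20.0% of all tested genes), with a summed level of 108 and 121 CPM in WT and 489 and 455 CPM in KO. In bulk RNA, fewer cells of a type and less RNA per cell cannot be told apart.

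Per gene length, the members spanned more than 2 orders of magnitude. FPKM (counts scaled to gene length and library size, as the authors deposited it) averaged over the 4 libraries was 606 ± 157 for Prdx1, 223 ± 35.9 for Hmox1, 173 ± 78.9 for Nfe2l2, 101 ± 59.5 for Txnrd1 and 78.7 ± 27.6 for Srxn1 (SD, n = 4). The lower group followed at 13.6 ± 2.84 for Gclc, 4.82 ± 4.88 for Slc7a11, 4.73 ± 0.610 for Keap1, 3.61 ± 1.14 for Gclm and 1.99 ± 0.321 for Nqo1. Transcripts of a peroxidase and of heme oxygenase were thus far more abundant than those of the glutathione ligase subunits and of the quinone reductase. Only 3 neighboring pairs in this order had library ranges that did not overlap: Prdx1 lay above Hmox1, Srxn1 above Gclc, and Gclm above Nqo1. The library ranges of all other neighbors in the order overlapped. Compared library by library, Nfe2l2 was above Txnrd1 and Gclc above Slc7a11 in 4 of 4 libraries, and the remaining overlapping neighbors changed places between libraries.

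**Figure D2:**
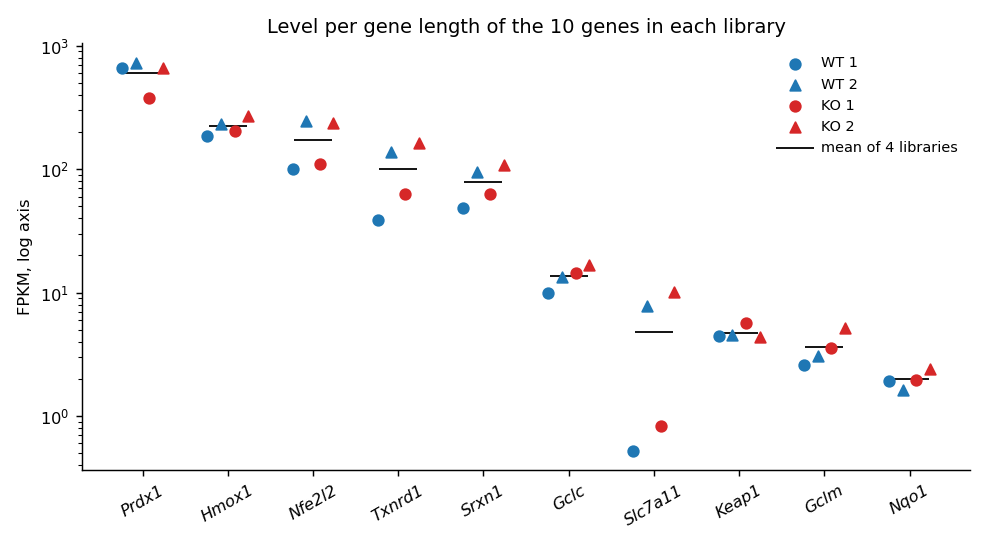
FPKM of the 10 genes (log axis) in each library, ordered by the mean over the 4 libraries (black bar). Circles are libraries numbered 1 and triangles those numbered 2, in blue for WT and red for KO; Slc7a11 spans from 0.521 to 10.1 FPKM, whereas Keap1 stays between 4.34 and 5.64.

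The comparison of KO with WT asked whether loss of G3BP1, the scaffold protein of stress granules, went with a change of the NRF2 program. The limits for a call were an adjusted p of 0.05 and a log2 fold change beyond 1 in either direction. By this rule the quasi-likelihood test of edgeR called 0 of the 10 members and 0% of all tested genes, and 0 members had an unadjusted p under 0.05, against 4.64% of genes higher and 1.99% lower at that limit. The DESeq2 Wald test called 0 members and 0.945% of genes, and the edgeR exact test 0 members and 1.84% of genes. With the replicate number as a block, 0 members were called, against 3.98% of genes higher and 1.37% lower, and 0 had an adjusted p below 0.05 whatever the fold, against 4.70% and 3.14%. With the block and a gene length correction 0 members and 2.96% of genes were called. Without WT replicate 1 and without WT replicate 2 it was 0 members against 0.00778% and 0.00775% of genes. The log2 fold changes of the members ran from -0.54 to 0.49 with a median of 0.14, against 0.04 for all tested genes, and 7 of 10 lay above 0, against 54.6% of all tested genes. Without WT replicate 1 or without KO replicate 2, 3 of 10 lay above 0, and the median was -0.22 and -0.36. Each fit without a library leaves 1 genotype with a single number, so differences between the numbers enter these values, here and below. With the replicate block 7 of 10 lay above 0 and the median was 0.14. The genotypes overlapped for 9 members. In 0 members were the 2 KO libraries above the 2 WT libraries without overlap (20.0% of all tested genes), and in 1, Prdx1, they were below (16.9%).

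The regulators had no resolved difference. Nfe2l2 (ENSMUSG00000015839, chromosome 2, 75675513 to 75704641) encodes NRF2 itself. It had 412 and 1031 CPM in WT 1 and WT 2 and 386 and 923 CPM in KO 1 and KO 2. Each KO library lay just below the WT library of the same number, while the libraries numbered 2 lay well above those numbered 1. The log2 fold change of Nfe2l2 was -0.14 (SE 0.59, 95% confidence interval -1.64 to 1.36, adjusted p 0.990). Its sign turned to 0.63 without WT replicate 2, to 0.36 without KO replicate 1 and to 0.027 on the FPKM scale.

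Keap1 (ENSMUSG00000003308, chromosome 9, 21229730 to 21239332), the cysteine-rich sensor that marks NRF2 for degradation, was the steadiest member. It had 36.4 and 37.5 CPM in WT and 39.6 and 34.1 CPM in KO. The KO libraries enclosed both WT libraries, and Keap1 had a log2 fold change of -0.004 (SE 0.22, 95% confidence interval -0.57 to 0.56, adjusted p 0.998). It was 0.12 on the scale of log2(FPKM + 1) and 0.094 without KO replicate 2.

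Cystine uptake and glutathione synthesis came next. Slc7a11 (ENSMUSG00000027737, chromosome 3, 49892526 to 50443614) encodes xCT, the cystine/glutamate exchanger that brings in the cysteine for glutathione. Its counts were 139 in WT 1, 2072 in WT 2, 218 in KO 1 and 3139 in KO 2, which is 8.56, 130, 11.7 and 159 CPM. Both KO libraries were above the WT library of their number, by 1.36-fold and 1.23-fold, but these steps were small beside the distance between libraries of 1 genotype. The log2 fold change of 0.30 therefore had an SE of 1.51 and a 95% confidence interval from -3.53 to 4.14 (adjusted p 0.990), and leaving out WT replicate 1 turned it to -0.60 and leaving out KO replicate 2 to -2.57. With the replicate number as a block it was 0.36 (SE 0.24, 95% confidence interval -0.10 to 0.83). That fit takes its spread mostly from other genes.

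Gclc (ENSMUSG00000032350, chromosome 9, 77754535 to 77794485), the catalytic subunit of glutamate-cysteine ligase, which carries out the rate-limiting step of glutathione synthesis, had 35.5 and 49.0 CPM in WT and 43.9 and 57.6 CPM in KO. Gclm (ENSMUSG00000028124, chromosome 3, 122245557 to 122270732), its modifier subunit, had 22.6 and 26.8 CPM in WT and 26.4 and 43.3 CPM in KO. KO 2 was the highest library for both subunits and WT 1 the lowest. The log2 fold change was 0.26 for Gclc (SE 0.28, 95% confidence interval -0.46 to 0.99, adjusted p 0.962) and 0.49 for Gclm (SE 0.31, -0.30 to 1.28, adjusted p 0.904), the highest value among the members in this fit. The value of Gclc was 0.047 without KO replicate 2, 0.051 without WT replicate 1 and 0.48 without WT replicate 2. Without KO replicate 2 the value of Gclm was 0.087, so that this library decided most of it. With the replicate block the value of Gclm was 0.46 (SE 0.24, 95% confidence interval -0.008 to 0.92). Gm6061, a gene whose listed position overlaps Gclm on the same strand, had 52 counts over all libraries.

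The thioredoxin arm held the members with the highest and the lowest ratios within number 1. Txnrd1 (ENSMUSG00000020250, chromosome 10, 82859206 to 82897724) encodes the cytosolic selenoenzyme that keeps thioredoxin reduced. It had 140 and 504 CPM in WT and 193 and 560 CPM in KO. As for Slc7a11, each KO library was above its WT counterpart and the libraries numbered 2 stood well above those numbered 1, and Txnrd1 had a log2 fold change of 0.23 (SE 0.76, 95% confidence interval -1.69 to 2.14, adjusted p 0.987). It was -0.42 without WT replicate 1 and -0.75 without KO replicate 2. With the replicate block it was 0.31 (SE 0.23, 95% confidence interval -0.15 to 0.76).

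Srxn1 (ENSMUSG00000032802, chromosome 2, 152105516 to 152111376), sulfiredoxin, repairs over-oxidized peroxiredoxins. It had 184 and 367 CPM in WT and 206 and 393 CPM in KO, again with the KO library slightly higher within each number. Srxn1 had a log2 fold change of 0.12 (SE 0.47, 95% confidence interval -1.08 to 1.32, adjusted p 0.990), and it was -0.29 without WT replicate 1 and -0.43 without KO replicate 2.

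Prdx1 (ENSMUSG00000028691, chromosome 4, 116685544 to 116700822), a peroxiredoxin that reduces hydrogen peroxide and a substrate of sulfiredoxin, was the single member with both KO libraries below both WT libraries. It had 2807 and 3158 CPM in WT 1 and WT 2 and 1375 and 2728 CPM in KO 1 and KO 2. KO 1 stood apart at 0.490 of WT 1, whereas KO 2 was at 0.864 of WT 2. The fitted difference was -0.54 on the log2 scale (SE 0.36, 95% confidence interval -1.45 to 0.37, adjusted p 0.907), and leaving out KO replicate 1 gave -0.13, leaving out KO replicate 2 gave -1.12. A correction for the trend of each library with gene length left it at -0.62. Mast cell and basophil markers, of which 5 of 10 lay below WT in both KO libraries (16.9% of all tested genes) and 1 above (20.0%), had a summed level of 110 and 100.2 CPM in WT and 44.2 and 53.2 CPM in KO, with Mcpt8 at 0 in every library. B cell markers lay below WT in both KO libraries for 8 of 8 genes (16.9% of all tested genes). Their summed level was 43.8 and 47.5 CPM in WT and 23.6 and 27.2 CPM in KO. Neutrophil markers lay below WT in both KO libraries for 4 of 12 genes (16.9%) and above for 1 (20.0%). Their summed level was 42.1 and 53.3 CPM in WT and 23.1 and 39.2 CPM in KO. Elane and Mpo were at 0 in every library. The filter on low counts was passed by 6 mast cell and basophil, 5 B cell and 6 neutrophil markers. The others had few counts, such as 3, 3, 0 and 0 for Vpreb3 in WT 1, WT 2, KO 1 and KO 2. The part of these lists in the result was not tested, nor in the lower values of other redox genes given below.

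Heme and quinone metabolism completed the set. Hmox1 (ENSMUSG00000005413, chromosome 8, 75093591 to 75100596), the inducible enzyme that breaks heme into biliverdin, iron and carbon monoxide, had 542 and 687 CPM in WT and 503 and 744 CPM in KO. The KO libraries enclosed both WT libraries. Its log2 fold change of 0.020 (SE 0.29, 95% confidence interval -0.72 to 0.76, adjusted p 0.995) was -0.016 with DESeq2 size factors, -0.14 without WT replicate 1 and -0.30 without KO replicate 2.

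Nqo1 (ENSMUSG00000003849, chromosome 8, 107388225 to 107403206), a quinone reductase often used as a readout of NRF2 activity, had the lowest level per length. Its counts were 51 and 43 in the WT libraries and 51 and 74 in the KO libraries, which is 3.14, 2.70, 2.74 and 3.76 CPM. KO 2 was the highest library and WT 2 the lowest, so the genotypes overlapped, and Nqo1 had a log2 fold change of 0.15 (SE 0.35, 95% confidence interval -0.74 to 1.05, adjusted p 0.981), with -0.10 without KO replicate 2.

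**Figure D3:**
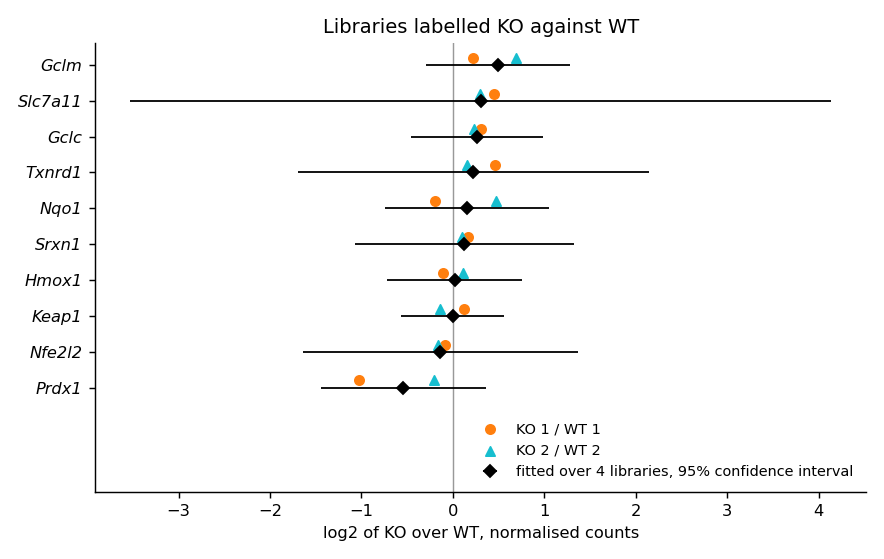
Log2 ratio of KO to WT for the 10 genes: fitted value over the 4 libraries with its 95% confidence interval (black), and the ratio within number 1 (orange) and within number 2 (cyan). Every interval includes 0, the widest is that of Slc7a11 (-3.53 to 4.14), and Prdx1 lies lowest at -0.54.

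Within the replicate numbers, 5 members (Gclc, Gclm, Txnrd1, Srxn1 and Slc7a11) were higher in KO in both numbers, against 36.0% of all tested genes, and 2 (Prdx1 and Nfe2l2) were lower in both, against 29.0%. The log2 ratios of the 5 higher genes ran from 0.16 to 0.46 within number 1 and from 0.10 to 0.69 within number 2. A number held a single library per genotype and had no error of its own. With the gene length correction the fitted value was 0.17 for Slc7a11, 0.061 for Srxn1, -0.21 for Nfe2l2 and 0.34 for Nqo1.

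The larger differences among the members lay between libraries of the same genotype. For 7 of 10 members, Hmox1, Gclc, Gclm, Txnrd1, Srxn1, Slc7a11 and Nfe2l2, both libraries numbered 2 lay above both numbered 1, where 25.2% of all tested genes did so, and for 0 members they lay below (23.2%). With DESeq2 size factors and with the gene length correction these were the same 7 genes, and on the FPKM scale they were 6, among which Prdx1 took the place of Gclc and Gclm (17.3% of all genes). These scalings were chosen after seeing the data. The labels do not say what a number stands for, so the difference was not tested and is given as a description.

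Slc7a11 had the widest distance, with WT 2 at 15.1-fold of WT 1 and KO 2 at 13.6-fold of KO 1. Txnrd1 followed with 3.60-fold in WT and 2.91-fold in KO. Nfe2l2 was at 2.50-fold in WT and 2.39-fold in KO, and Srxn1 had log2 ratios of 1.00 in WT and 0.93 in KO. In each of these 4 genes the library numbered 2 was higher in both genotypes, and whether the genotypes differed in this was not tested. Among the remaining members Prdx1 was at 1.13-fold in WT and 1.98-fold in KO, and Nqo1 at 0.860-fold in WT and 1.37-fold in KO. Hmox1 was at 1.27-fold and 1.48-fold, Gclc at 1.38-fold and 1.31-fold, and Gclm at 1.19-fold and 1.64-fold in WT and KO. Keap1 was at 1.03-fold in WT and 0.860-fold in KO. The median log2 ratio of number 2 to number 1 over the members was 0.40 in WT and 0.82 in KO, where over all tested genes it was -0.003 and -0.004.

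**Figure D4:**
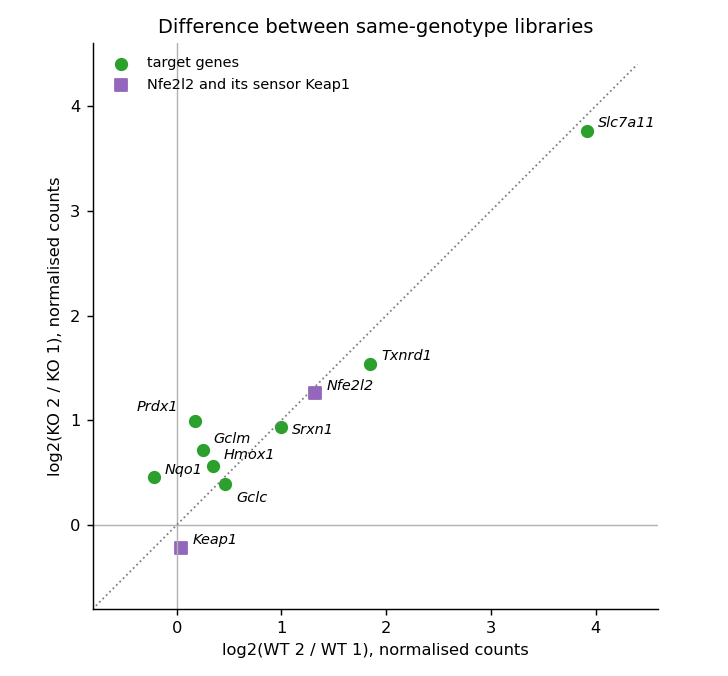
Log2 ratio of library 2 to library 1 in WT (horizontal axis) and in KO (vertical axis) for the 8 targets (green circles) and for Nfe2l2 and Keap1 (purple squares), in normalized counts. The dotted line marks equal ratios; Slc7a11 lies at 3.92 and 3.77, Txnrd1, Nfe2l2 and Srxn1 lie near the line, and Keap1 lies near 0.

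Markers of the macrophage itself also differed between the numbers. Cd14, the lipopolysaccharide coreceptor, had 125 and 682 CPM in WT 1 and WT 2 and 105 and 532 CPM in KO 1 and KO 2. Sod2, the mitochondrial superoxide dismutase and a known NF-κB target, had 121 and 1066 CPM in WT and 85.7 and 901 CPM in KO. Their part in the pattern of the members was not tested, and they were named after their values were seen.

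The genes with the most similar profile were sought for the 3 members with the widest range, by the root mean square difference of log2 CPM, each gene centered on its own mean over the 4 libraries, among 8090 other genes with a mean over the libraries of at least 10 CPM. For Slc7a11 these were Rassf4 (difference 0.12), Slc2a6 (0.18), which encodes a hexose transporter of lysosomes, and Cd38 (0.19), an ectoenzyme that consumes NAD. For Txnrd1 they were Fgr (0.059), a Src family kinase of myeloid cells, Dock10 (0.059) and Cdc14a (0.063). For Nfe2l2 they were Mtmr14 (0.019), Car13 (0.049) and Akap2 (0.066). The members themselves split by number, so the choice fixed that these 9 genes split in the same way.

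The other genes of the redox system were taken from 8 lists with 105 symbols, of which 104 were in the table and 95 were tested. The same test called 0 of these 95, and at an unadjusted p under 0.05 there were 2 higher (Gpx8 and Abcb6) and 3 lower (Gpx1, Chac2 and Txnip) in KO, against 4.64% and 1.99% of all tested genes. The median log2 fold change was -0.17 (0.04 over all tested genes) and 33 of 95 lay above 0 (54.6% of all tested genes). Without overlap, the KO libraries were below WT for 24 of the 95 genes (16.9% of all tested genes) and above WT for 7 (20.0%), and within number 1 the median log2 ratio was -0.29 while within number 2 it was -0.01. On the scale of log2(FPKM + 1) 48 of 97 genes lay above 0 with a median of -0.002, where the median of all genes was 0.11, and by FPKM 16 genes were below and 14 above without overlap, against 9.40% and 31.6% of all genes. Leaving out a library gave a median of -0.079 (KO 1), -0.056 (WT 1), -0.30 (KO 2) or -0.23 (WT 2), with 42, 37, 27 and 34 of the 95 genes above 0.

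**Figure D5:**
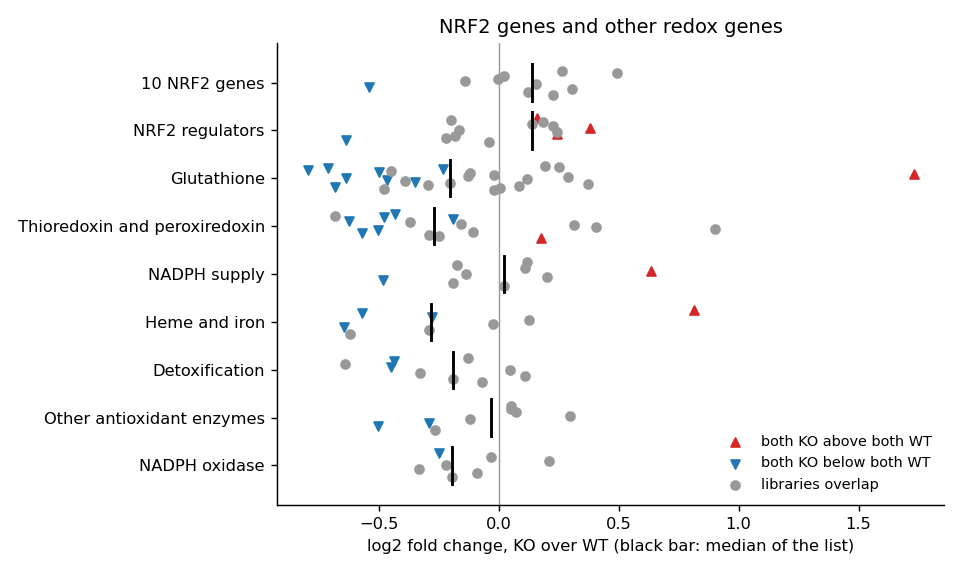
Log2 fold change of KO over WT for the 10 NRF2 genes and for the tested genes of the 8 other redox lists, each point 1 gene and each black bar the median of its list. Triangles mark genes whose KO and WT libraries did not overlap; Gpx8 lies farthest to the right at 1.73, and the medians of the glutathione, thioredoxin and heme lists lie below 0 at -0.20, -0.27 and -0.28.

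Among the regulators of NRF2, 0 of 13 tested genes were called, and the median log2 fold change was 0.14. Mafk, a small MAF partner of NRF2, had 25.8 and 27.3 CPM in WT and 32.2 and 30.7 CPM in KO. Gsk3b, a kinase that can mark NRF2 for degradation without KEAP1, had 46.9 and 47.2 CPM in WT and 67.7 and 54.8 CPM in KO. Both genes had KO libraries above the WT libraries, with log2 fold changes of 0.24 (adjusted p 0.949) and 0.38 (adjusted p 0.902), which the gene length correction took to 0.12 and 0.15. Rbx1, the RING subunit of the KEAP1-CUL3 ligase, lay lower, with 175 and 108 CPM in WT and 79.6 and 102 CPM in KO (log2 fold change -0.64, adjusted p 0.848), and leaving out WT replicate 1 gave -0.25, leaving out WT replicate 2 gave -0.98. Sqstm1, the autophagy receptor p62 that captures KEAP1 and is itself an NRF2 target, followed the numbers as Nfe2l2 did, with 490 and 1611 CPM in WT and 485 and 1555 CPM in KO. Maff, another small MAF gene, named after its values were seen, also did so, with 2.22 and 33.4 CPM in WT and 3.75 and 28.0 CPM in KO.

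In the glutathione list, 0 of 25 tested genes were called and the median was -0.20. Gpx8, a peroxidase of the endoplasmic reticulum, was counted 25 and 19 times in the WT libraries and 77 and 98 times in the KO libraries. Its log2 fold change of 1.73 (SE 0.36, adjusted p 0.289) was the highest of the 95 genes. By the exact test of edgeR it passed, with an adjusted p of 0.0362, as the single redox gene among the 1.84% of all tested genes that this test called. The quasi-likelihood test with the replicate block also called it (adjusted p 7.8e-05), and the DESeq2 Wald test did not. The stromal markers given above moved in the same direction as Gpx8, and their part in it was not tested. Gpx1, the main cytosolic glutathione peroxidase, had 1075 and 697 CPM in WT and 436 and 584 CPM in KO (log2 fold change -0.80, SE 0.31, adjusted p 0.747). Chac2, a glutathione-degrading cyclotransferase, had 14.1 and 13.2 CPM in WT and 7.35 and 9.29 CPM in KO (log2 fold change -0.71, adjusted p 0.705).

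In the thioredoxin and peroxiredoxin list, 0 of 16 genes were called, and the median was -0.27. Txn1, the substrate of TXNRD1, had 1160 and 1155 CPM in WT and 667 and 965 CPM in KO. Txnip, an inhibitor of thioredoxin, had 367 and 374 CPM in WT and 238 and 261 CPM in KO. Prdx4, the peroxiredoxin of the endoplasmic reticulum, had 161 and 112 CPM in WT and 81.4 and 96.0 CPM in KO. All of these lay, as Prdx1 did, below WT in both KO libraries, with log2 fold changes of -0.50, -0.57 and -0.62 and adjusted p of 0.850, 0.739 and 0.823. With the gene length correction the value for Txn1 was -0.20.

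Heme and iron genes had a median of -0.28 with 0 of 8 called. Ftl1, the ferritin light chain and a known NRF2 target, had 22479 and 18541 CPM in WT and 9627 and 16609 CPM in KO (log2 fold change -0.64, SE 0.29, adjusted p 0.837), a profile with KO 1 lowest that Prdx1 shared. Blvra, biliverdin reductase A, which acts on the product of HMOX1, had 293 and 220 CPM in WT and 162 and 184 CPM in KO (log2 fold change -0.57, adjusted p 0.839). Abcb6, a porphyrin transporter, was higher in both KO libraries, with 5.54 and 5.33 CPM in WT and 11.0 and 8.12 CPM in KO (log2 fold change 0.81, adjusted p 0.688). Fth1, the ferritin heavy chain, had 11310 and 14228 CPM in WT and 10637 and 14443 CPM in KO, and its log2 fold change of -0.026 became 0.32 with the gene length correction.

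NADPH supply, detoxification and the remaining antioxidant enzymes had 0 of 9, 0 of 9 and 0 of 8 genes called. Me1, malic enzyme, was counted 20 and 35 times in WT and 54 and 48 times in KO (log2 fold change 0.64, adjusted p 0.912). Pgls, an enzyme of the pentose phosphate pathway, had 106 and 73.3 CPM in WT and 57.6 and 70.6 CPM in KO (log2 fold change -0.48, adjusted p 0.893), and Taldo1, a transaldolase and the most abundant gene of the NADPH list per length, had a log2 fold change of -0.19 (adjusted p 0.964). The carbonyl reductase gene Cbr3 and the aldose reductase gene Akr1b8 had log2 fold changes of -0.45 and -0.44 (adjusted p 0.904 and 0.903; -0.15 and -0.26 with the gene length correction), and Akr1a1 had -0.13 (adjusted p 0.971). Sod1, the cytosolic superoxide dismutase, had 189 and 131 CPM in WT and 106 and 120 CPM in KO (log2 fold change -0.50, adjusted p 0.866, and -0.029 with the gene length correction). Pon2 had a log2 fold change of -0.29 (adjusted p 0.939), which was -0.45 with that correction.

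The phagocyte NADPH oxidase, the source of superoxide, had 0 of 7 tested genes called and a median of -0.19. Cyba, its p22phox subunit, had 918 and 925 CPM in WT and 709 and 840 CPM in KO (log2 fold change -0.25, adjusted p 0.949), and the value was 0.16 with the gene length correction. Cybb, the catalytic gp91phox subunit, named after its values were seen, had 599 and 2532 CPM in WT and 681 and 2383 CPM in KO. It split by number as Nfe2l2, Txnrd1 and Slc7a11 did, at 4.23-fold in WT and 3.50-fold in KO, and the genotypes overlapped. Of the redox genes named above, several values came closer to 0 when 1 library was left out. Without WT replicate 1 they were -0.45 for Gpx1, -0.34 for Prdx4, 0.28 for Me1, -0.19 for Pgls, -0.35 for Blvra, -0.22 for Cbr3, -0.16 for Akr1b8, -0.21 for Sod1 and -0.18 for Pon2. Without KO replicate 1 they were 0.22 for Gsk3b, -0.26 for Txn1, -0.30 for Ftl1 and -0.13 for Cyba. Other omissions went the other way. Over the 95 redox genes the median of -0.17 became -0.30 without KO replicate 2 and -0.23 without WT replicate 2.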

How the data were processed

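Total RNA of mouse macrophages was sequenced in 4 libraries. Per the study's methods, reads were filtered with Seqtk, aligned with HISAT2 2.0.4 and counted with StringTie 1.3.3b. The authors deposited whole-number counts per gene, not normalized, with an FPKM value beside each. For 10564 genes the length implied by count and FPKM agreed between libraries within 0.00398%, so FPKM carries only the library total. The submitters' processing notes name mm39, but 27686 of the 34267 identifiers shared with GENCODE M21 (GRCm38) had its start and end, 7 of the 10 members among them, so positions are given as GRCm38. Strand use in counting is not given in the sources used here, so overlapping genes can share counts.

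Counts were analyzed in R 4.3.3 with edgeR 4.0.16: filterByExpr (minimum count 10, total 15), TMM, glmQLFit and glmQLFTest with genotype as the only term, two-sided, Benjamini-Hochberg adjustment over 12418 genes. Genes were called at an adjusted p below 0.05 with a log2 fold change beyond 1 in either direction. Ratios within a number had 0.5 counts added. Alternatives used DESeq2 1.42.0, limma 3.58.1 (genes with at least 0.1 FPKM in 2 libraries) and loess trends with gene length (span 0.5). The code was tested on simulated data. No 2 libraries agreed within counting noise (chi-square over degrees of freedom 21.6 to 118 across all pairs).

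The members and the lists were chosen with earlier results of these data known. Named were the members, G3bp1, called redox genes, per list up to 3 non-overlapping genes of at least 1 CPM with the largest change and the gene of highest FPKM, and genes most like the 3 widest members. Other names were chosen after their values were seen.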

Additional observations from a re-analysis of the deposited data

How the results depend on the processing

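Without a block, the intervals of the members that split most by number span several log2 units, with 2 libraries per genotype. A missed threshold does not show that levels were equal. No setting called a member. Over all genes the count of 0 calls became 170 in the DESeq2 Wald test, 229 in the edgeR exact test and 2 with limma on log2(FPKM + 0.1), where leaving out a library gave 0 to 1. FPKM scaling moved the median of all genes from 0.04 to 0.11 with 1 and to 0.18 with 0.1 FPKM added. The median of the members ran from -0.36 to 0.53 when a library was left out and from 0.091 to 0.28 in the other settings.

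The labels do not say that numbers mark a shared batch. Same-numbered libraries deviated together from their genotype means (correlation 0.69 across genes), from 2 pairs only. The replicate block gave 664 calls, 494 of them higher in KO and 170 lower, and the replicate block with gene length correction gave 367. With number and genotype both fitted, 4 libraries leave each gene almost no spread of its own. The p-values of the block therefore rest mostly on a spread shared over genes. Among the members the block called 0, with the lowest adjusted p at 0.0903 for Prdx1 (-0.62). Of the other redox genes it called 1, Gpx8 (adjusted p 7.8e-05), as did the block with length correction and the exact test; at an adjusted p under 0.05 without a minimum fold it also held Gpx1 (0.0183) and Abcb6 (0.0489).

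Signs close to 0 turned as follows. Hmox1 gave -0.016 with DESeq2 size factors and -0.015 in the Wald test. With limma on log2(FPKM + 1) and on log2(FPKM + 0.1), Nfe2l2 gave 0.027 and 0.027, Keap1 0.12 and 0.14, Sqstm1 0.12 and 0.12, Fth1 0.12 and 0.12, and Akr1a1 0.025 and 0.025. The length correction without and with the block gave 0.32 and 0.35 for Fth1 and 0.16 and 0.16 for Cyba. Leaving out libraries moved Hmox1 from -0.30 to 0.28, Nqo1 from -0.10 to 0.37, Txnrd1 from -0.75 to 1.39, Srxn1 from -0.43 to 0.67, Slc7a11 from -2.57 to 3.29, Nfe2l2 from -0.91 to 0.63, Keap1 from -0.11 to 0.094, Sqstm1 from -1.12 to 1.02, Taldo1 from -0.43 to 0.044 and Fth1 from -0.27 to 0.18. Differences between the numbers enter these values, since the numbers are then unbalanced between the genotypes.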
